A study of Mus musculus with 2 samples.

Results

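Molecular chaperones and protein folding enzymes were examined in EB5 mouse embryonic stem (ES) cells that had received Klf4 siRNA, against a pool of RNA from other mouse cell lines. The members were chosen by gene symbol: the Hspa, Hspb, Hspd, Hspe, Hsph and Hsp90 families, the J proteins (Dnaj), the chaperonin CCT (Tcp1 and Cct genes), prefoldin, the Bag cofactors, the Pdia disulfide isomerases, calreticulin, calnexin and the heat shock factors. This gave 66 genes on 70 probes, out of 10149 genes that could be named and 21052 gene probes in all. By textbook location, 44 members were placed in the cytosol and nucleus, 12 in the endoplasmic reticulum (ER) and 6 in mitochondria, 2 were heat shock factors and 2 J proteins were left unplaced. Hspa1a, Hspa1b, Hspd1, Cct3, Pdia6 and Hsf2 were not among the probes named here and were not analysed.

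Transcripts were measured by hybridisation to 2 oligonucleotide arrays read in both dyes, which form 1 group (siKlf4 ES cells, n = 2). EB5 cells, grown without feeders, were transfected with Klf4 siRNA and the plasmid pCAGEGFP-IP, kept for 24 h, and then put under puromycin selection for a further 24 h. Cy3 marked the ES cell RNA, and the reference, Universal Mouse Reference RNA pooled in equal parts from 11 cultured cell lines, carried Cy5 on both arrays. The lines in the pool came from embryo, embryo fibroblast, kidney, liver, macrophage, B and T lymphocyte, mammary gland, muscle, skin and testis. The samples include no ES cells that lacked the Klf4 siRNA, so each ratio compares siKlf4 ES cells with the pool and gives no estimate of what the siRNA did. The labels number the samples 1 and 2 and do not say whether these are separate cultures, so the p-values measure only the spread between these arrays, which may be technical.

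Chaperones bind unfolded or partly folded proteins and help them reach their native shape, and most compartments have their own set. In the cytosol, J proteins bring clients to Hsp70, nucleotide exchange factors of the Hsp110 and Bag families release them, and Hsp90 and the ring-shaped chaperonin CCT take over particular clients. The ER uses its own Hsp70 and Hsp90 together with lectin chaperones and disulfide isomerases for secreted and membrane proteins, and mitochondria fold imported proteins with another Hsp70 and the Hsp60 and Hsp10 chaperonin. Heat shock factors drive part of the cytosolic set. The unfolded protein response drives part of the ER set, in some genes through a promoter sequence called the ER stress response element (ERSE).

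The promoters of the ER members are shown first. The ERSE is known as a promoter sequence of the ER set, so finding it there is not an independent result. Promoter windows, 250 bases before to 50 bases after the start site, were taken from RefSeq (GRCm38.p6), which held 66 windows for 52 of the 66 members. The ERSE was searched as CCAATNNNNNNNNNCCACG on both strands. It was present in the promoters of 5 of 12 ER members (41.7%), of 0 of 35 cytosolic and nuclear members and of 0 of 3 mitochondrial members. Of all 27025 genes with a window in the table, 37 held it (0.137%). The capitals mark the match, read along the gene's own strand and ending with CCACG or, for a match on the other strand, beginning with CGTGG.
Hsp90b1, distal match: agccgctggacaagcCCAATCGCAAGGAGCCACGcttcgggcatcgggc
Hsp90b1, proximal match: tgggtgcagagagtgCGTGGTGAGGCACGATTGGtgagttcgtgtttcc
Dnajc3: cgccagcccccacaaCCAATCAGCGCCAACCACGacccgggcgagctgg
Hspa5: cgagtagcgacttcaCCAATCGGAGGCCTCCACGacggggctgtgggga
Calr: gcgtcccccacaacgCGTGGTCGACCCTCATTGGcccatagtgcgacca
Canx: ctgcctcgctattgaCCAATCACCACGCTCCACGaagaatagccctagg

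The Hsp90b1 stretches lie at chr10:86705623-86705671 and chr10:86705518-86705566 on the minus strand, with the matches beginning 212 and 107 bases before the start site. The Dnajc3 stretch lies at chr14:118937812-118937860 on the plus strand (105 bases before the start), and the Hspa5 stretch at chr2:34772010-34772058 on the plus strand (65 bases before). Those of Calr, at chr8:84847060-84847108, and Canx, at chr11:50325785-50325833, are on the minus strand, 162 and 145 bases before the start. The heat shock element, the site of heat shock factors, was searched as GAANNTTCNNGAA and TTCNNGAANNTTC on both strands, overlapping matches being counted together. No member held both motifs. The heat shock element was found in 2 of 52 members (3.85%), against 179 of 27025 genes (0.662%). One was Hsph1, where both matches lay after the start site. The other was Hspe1, where 2 overlapping matches began 89 bases before the start, shown here as the only member with a heat shock element upstream of it (chr1:55088044-55088091, plus strand).
Hspe1: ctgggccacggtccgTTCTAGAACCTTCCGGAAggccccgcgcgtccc

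A match describes letters in this window and is not a shown binding site. Windows for Hsp90aa1, Hsp90ab1, Hspa8 and Hsf1 were not among those used.

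**Figure D1:**
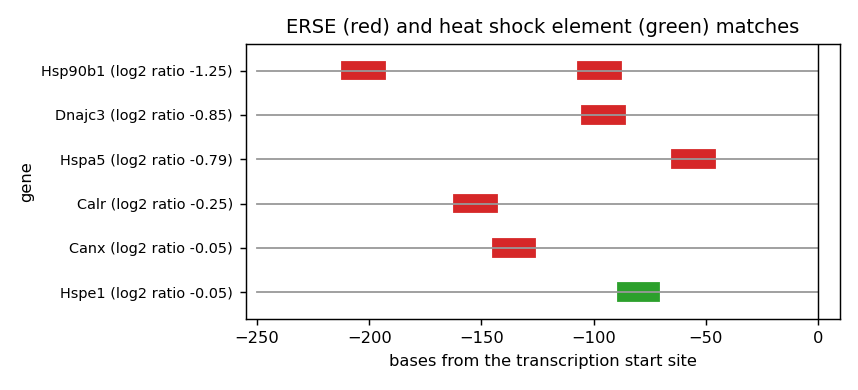
Position of each motif match in the promoters of 6 members, in bases from the RefSeq start site (x axis, 250 bases upstream to the start), with 1 line for each gene and its mean log2 ratio of ES cells over reference. Red boxes are ERSE matches and the green box spans the overlapping heat shock element matches of Hspe1; the 5 genes with an ERSE are all ER members and have ratios from -1.25 to -0.05.

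As a check of the samples, 9 of 9 ES cell markers on the arrays were higher in the ES cells than in the pool, with log2 ratios from 0.27 to 5.98, although the Esrrb probe was too dim in both channels to exceed the negative controls. All 7 fibroblast markers (-4.78 to -0.56) and 5 of 5 macrophage markers (-4.63 to -1.96) were lower, the -4.63 being Ctss, which was not above the negative controls in the ES cells. Klf4, the siRNA target, stood at log2 ratios of 0.43 and 0.59 (mean 0.51), which checks nothing without untreated cells. Signals are in arbitrary intensity units above local background, and a probe counts as above the negative controls in a channel when it exceeds a limit there, namely percentile 95 of the negative controls (155 and 178 units in the ES channel, 40.9 and 58.4 in the reference). By this limit 59 of the 66 members were above the negative controls in both channels on both arrays. Dnajc3, Bag3, Hspa2, Hspb7 and Dnajc17 were not above them in the ES cells on either array, Dnaja4 was above them in neither channel, and Dnajb7 was above them in the ES cells on only 1 array.

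The median cytosolic member lay above the reference, the median ER member below it and the median mitochondrial member near it, with cytosolic genes on both sides. The median log2 ratio of ES cells over reference was 0.28 for the cytosolic and nuclear members (0.27 and 0.35 on arrays 1 and 2), 0.01 for the mitochondrial members (-0.05 and 0.06) and -0.46 for the ER members (-0.41 and -0.51). The ER median was -0.24 without background correction, and the cytosolic median was 0.52 among the 38 members above the negative controls in each channel. All 21028 probes tested had a median of -0.01. A gene was called higher or lower at an adjusted p under 0.05 (limma moderated test against 0, Benjamini-Hochberg over all probes). Over all probes, 31.6% were called higher and 31.4% lower. The call was higher for 30 of the 66 members and lower for 25, while 11 did not pass, and their median was 0.06. In the cytosol and nucleus, 27 of 44 were higher, 11 lower and 6 did not pass. Among the 12 ER members, 1 was higher, 9 were lower and 2 did not pass, and among the 6 mitochondrial members 1 was higher, 2 lower and 3 did not pass.

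With a limit of 2-fold added, 12 members were higher and 3 lower, against 5.08% and 5.19% of all probes. The 12 higher ones were all cytosolic or nuclear, and the 3 lower ones were Dnajb4 and Bag2, of the cytosol, and Hsp90b1, of the ER. These counts depended on the scaling. With negative control subtraction 9 members were at least 2-fold higher and 8 lower, and with a normexp offset of 0 the counts were 10 and 5. Without background correction they were 7 and 2, and when loess was replaced by median centring 6 and 3. The negative control spots reached an absolute log2 ratio of 0.52 as a mean of the 2 arrays, and smaller ratios are within that range whatever their p. These spots are dim, with median ES signals of 129 and 138 units against 308 and 355 for gene probes. Whether the range holds for bright probes was not tested. Beyond this range, 19 members were higher and 12 lower (12.1% and 10.8% of all probes). Of these, 19 and 4 were cytosolic or nuclear and 0 and 6 were of the ER. Both arrays carry the dyes in the same orientation, so a dye effect stays in every ratio. In bulk RNA, fewer cells of a type and less RNA per cell cannot be told apart.

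**Figure D2:**
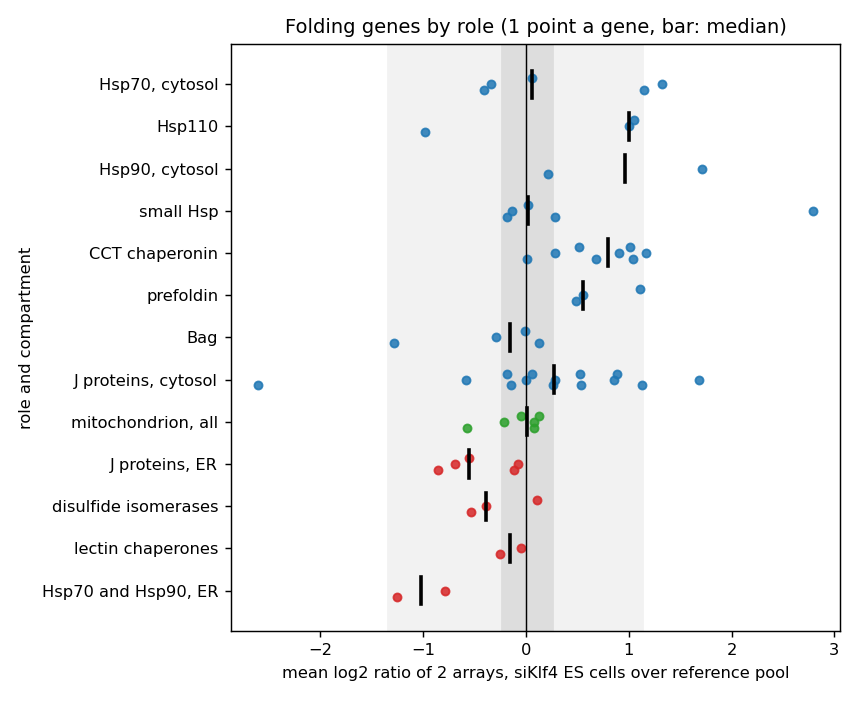
Mean log2 ratio of ES cells over reference (x axis, 2 arrays averaged) for the members by role and compartment, 1 point for each gene, with a black bar at the median of each role. The dark band spans the 25th to 75th percentile of all named genes (-0.23 to 0.26) and the light band the 5th to 95th (-1.34 to 1.14); Hspb1 and Dnajb4 are the points farthest out, Dnajc3 is plotted at its fitted value, and CCT and prefoldin lie to the right of 0 while the ER roles lie mostly to the left.

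Of the 8 measured genes of the CCT chaperonin, which folds actin and tubulin, 7 were higher, 0 lower and 1 did not pass, at a median of 0.80. The shares over all probes were 31.6% higher and 31.4% lower. Beyond the range of the negative controls, 5 of the 8 were higher and 0 lower. Cct7 stood at 1.16 and 1.18 on arrays 1 and 2, a mean of 1.17 ± 0.016 (SD, n = 2) or 2.25-fold (adjusted p = 5.76e-06). Its signals were 34165 and 39789 in the ES cells against 15717 and 15532 in the reference, so both arrays were on the same side. Cct6a followed at 1.02 and 1.06 (2.05-fold) and Cct8 at 0.82 and 1.19 (2.01-fold). The arrays differed more for Cct8 than for any other member, by 0.37, and its mean of 1.01 was still above the range of the negative controls. Cct6b, the testis counterpart of Cct6a, stood at 0.91 and 0.92. Its probe shared no run of 15 or more bases with the Cct6a probe. The Cct6b probe was not compared with the Cct6a transcript, so signal from Cct6a was not excluded. Cct2 (0.62 and 0.74) was higher and beyond the negative controls. Cct5 (0.51 and 0.52) and Cct4 (0.20 and 0.35) were higher inside their range, and Cct4 did not pass with negative control subtraction (adjusted p = 0.0773). Tcp1, which encodes the alpha subunit of the same ring, stood at -0.04 and 0.06 and did not pass (adjusted p = 0.889). The subunits of this single complex thus spanned 0.01 to 1.17 in log2 ratio.

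Prefoldin, which hands unfolded actin and tubulin to CCT, was higher in 3 of 3 measured subunits, against 31.6% of all probes. Pfdn6 stood at 1.15 and 1.07, a mean of 1.11 ± 0.056 (SD, n = 2; 2.16-fold), while Pfdn2 stood at 0.55 and 0.58 and Pfdn1 at 0.57 and 0.40. Vbp1, another prefoldin subunit whose symbol lies outside the rule, was higher at 0.53 and 0.86. All 4 prefoldin genes were therefore above the reference on each array. The mean of Pfdn1 (0.49) lay inside the range of the negative control spots, and that of Pfdn2 (0.56) just beyond it.

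Cytosolic Hsp70 genes were split. Hspa8, the constitutive Hsp70, stood at 1.25 and 1.05, a mean of 1.15 ± 0.14 (SD, n = 2) or 2.22-fold (adjusted p = 2.91e-05). This probe was saturated in the ES channel on 1 array. A dimmer, unsaturated Hspa8 probe gave 0.88 on both arrays (1.84-fold), so the place of Hspa8 among the members over 2-fold rests on the saturated probe. Hspa14, the Hsp70 of the ribosome-associated complex, was higher at 1.24 and 1.39 (2.49-fold), and its partner J protein Dnajc2 was higher at 0.88 and 0.84 (1.82-fold). Hspa1l, a testis form, did not pass at 0.05 and 0.07. Hspa12b, a divergent family member, was lower at -0.45 and -0.37, inside the range of the negative controls. The testis-enriched gene Hspa2 was counted as lower (-0.41 and -0.27), but its ES signals of 128 and 144 units were not above the negative controls, so no fold is given, and its call was lost with median centring (adjusted p = 0.07).

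The exchange factors of Hsp70 also differed among themselves. Of the Hsp110 relatives, Hspa4 (1.08 and 1.02, 2.07-fold) and Hsph1 (1.04 and 0.97, 2.01-fold) were higher. Hspa4l, the relative known from testis, was lower at -0.95 and -1.01, equal to 1.97-fold below the reference (adjusted p = 1.3e-05). The size for Hspa4l depended on the background step, at -0.37 with none and -1.52 with negative control subtraction, while Hspa4 and Hsph1 stayed higher in both. Among the Bag cofactors, Bag2, an inhibitor of the chaperone-linked ubiquitin ligase Chip, was lower at -1.25 and -1.30, a mean of -1.28 ± 0.034 (SD, n = 2). It was 2.42-fold below the reference, with ES signals of 314 and 324 against 692 and 645. The size for Bag2 also depended on the background step, at -0.66 with none and -1.63 with negative control subtraction. Bag1 did not pass (-0.02 and 0.00) but was called lower with median centring (-0.22). Bag4 was higher by only 0.13 on both arrays and did not pass without background correction (adjusted p = 0.073). Bag3, the stress-inducible Bag, was counted as lower at -0.27 and -0.31. Its ES signal was not above the negative controls, so the reference exceeded it at least 1.05-fold in this scaling only. Without background correction the log2 ratio of Bag3 was -0.07. Its call was lost with median centring (-0.07, adjusted p = 0.234).

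Hsp90aa1, the inducible cytosolic Hsp90, was among the highest members. Its brighter probe stood at 1.86 and 1.57 and was saturated in the ES channel on both arrays (65083 and 65113 units, against 18193 and 19315 in the reference). The mean of the arrays was 3.28-fold (adjusted p = 1.62e-05), which saturation makes a lower bound in this scaling only: the log2 ratio was 1.71 here and 1.63 from the processed signals. A second, unsaturated probe gave 2.15 and 1.98, or 4.2-fold. Hsp90ab1, the constitutive form, was higher by much less, at 0.27 and 0.18 (1.17-fold, adjusted p = 0.0059). Its ratio lay within the range of the negative controls, and it did not pass with the authors' series table (adjusted p = 0.0562) or with negative control subtraction (adjusted p = 0.127). Its adjusted p ran from 0.00272 to 0.127 over the alternatives, with the ES cells above the reference in each.

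Of the small heat shock proteins, which hold unfolded proteins without using ATP, only Hspb1 stood far from the reference among the 5 on the arrays. Hspb1 (Hsp25 in the mouse) had the highest ratio of the 66 members, of which only Hsp90aa1 and Hspa8 were limited by saturation, at 2.90 and 2.69, a mean of 2.79 ± 0.15 (SD, n = 2). It was 6.94-fold higher in the ES cells (limma adjusted p = 1.93e-06), with signals of 18527 and 20661 against 2614 and 2833. Hspb3, known from muscle, was higher at 0.28 and 0.27, Hspb8, the partner of Bag3, did not pass (0.02 and 0.01), and Hspb2 and Hspb7 were lower at means of -0.13 and -0.18. These 4 values lie inside the range of the negative control spots. Hspb7 was below their limit in the ES cells, and with median centring Hspb2 (0.03) and Hspb7 (0.04) changed sign and did not pass, while Hspb8 (-0.13) was called lower.

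Cytosolic and nuclear J proteins ranged from -2.60 to 1.68, with 8 of 14 higher, 4 lower and 2 not passed. The shares over all probes were 31.6% higher and 31.4% lower. Dnajc7, which binds both Hsp70 and Hsp90, stood at 1.73 and 1.63, a mean of 1.68 ± 0.071 (SD, n = 2; 3.2-fold, adjusted p = 2.98e-06). Dnajc8, a nuclear J protein linked to splicing, followed at 1.12 and 1.14 (2.18-fold). Dnaja1, a main partner of Hspa8, was higher at 0.72 and 1.05, and its dimmer probe gave 0.28 and 0.59. Dnaja2, of the same class, was higher at 0.48 and 0.59, and Dnajc12, a cofactor of aromatic amino acid hydroxylases, at 0.38 and 0.69. The histone chaperone Dnajc9 (0.20 and 0.36) and Dnajb3 (0.24 and 0.28) were higher within the range of the negative controls. Dnajc9 did not pass with median centring (0.05, adjusted p = 0.508) or negative control subtraction (adjusted p = 0.0818).

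At the other end, Dnajb4 was the lowest of the 59 members above the negative controls, at -2.69 and -2.51, a mean of -2.60 ± 0.13 (SD, n = 2). The reference exceeded the ES cells 6.07-fold (limma adjusted p = 1.71e-06), with 2218 and 2145 units against 334 and 413. Its close relative Dnajb1, the classic heat-inducible J protein, stood at -0.01 and 0.00 and did not pass (adjusted p = 0.928), though with median centring it was called lower (-0.19). Dnajb2, which steers clients to the proteasome, was lower at -0.56 and -0.59 (1.49-fold). Dnajc17 did not pass, while Dnaja4 and Dnajb7 were called lower at means of -0.14 and -0.18, all 3 at signals near the negative controls. With median centring Dnaja4 (0.02) and Dnajb7 (0.01) changed sign and did not pass, and Dnajc17 (0.28) was called higher. Of the J proteins that were not placed, Dnajc27 was higher (0.35 and 0.33) and Dnajc4 lower (-0.40 and -0.36). Over all 25 J proteins, 9 were higher, 11 lower and 5 did not pass, at a median of 0.00. Of all probes, 31.6% were called higher and 31.4% lower, so these counts are not read as a trait of J proteins. Beyond the range of the negative controls, 6 J proteins were higher and 6 lower.

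**Figure D3:**
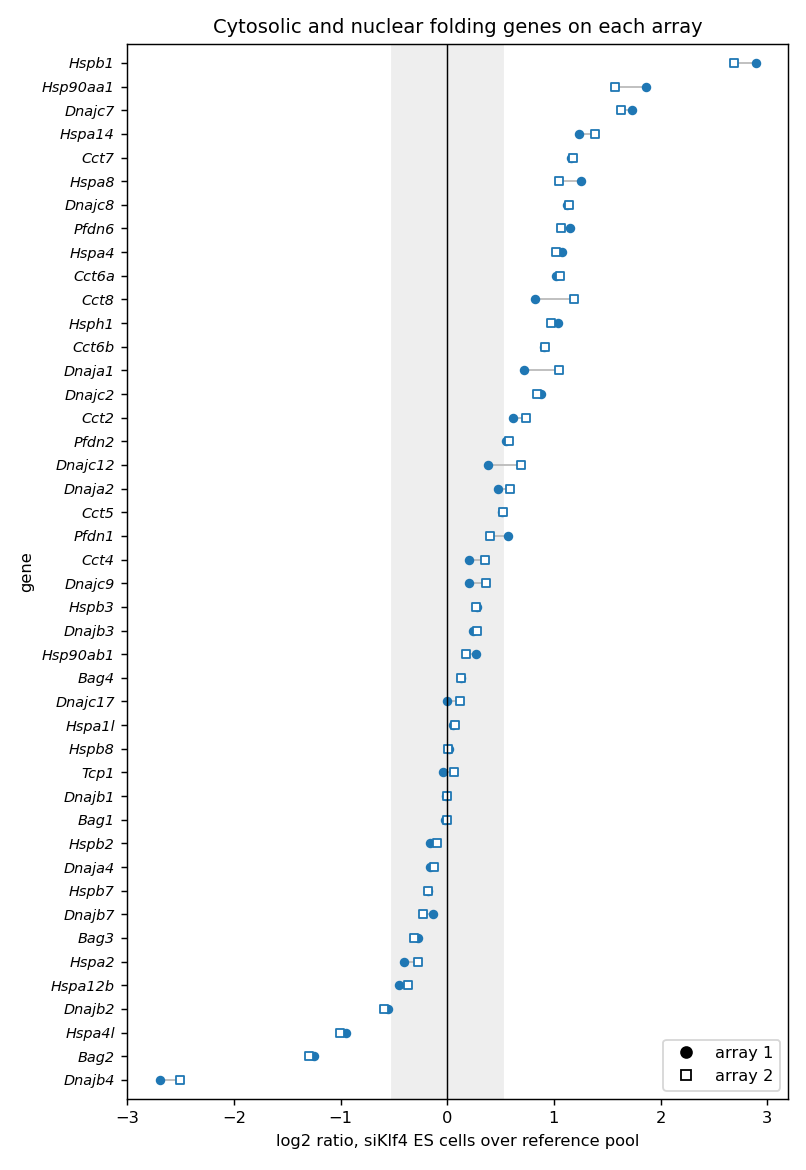
Log2 ratio of ES cells over reference (x axis) for each of the 44 cytosolic and nuclear members (y axis, ordered by mean), with array 1 as filled circles and array 2 as open squares. The grey band is the range of the negative control spots (-0.52 to 0.52); Hspb1 lies near 2.79 and Dnajb4 near -2.60, the 2 arrays lie close together for most genes, and Hsp90aa1 is a lower bound because its probe was saturated.

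In the ER set, 9 of 12 genes were called lower, against 31.4% of all probes. Beyond the range of the negative controls, 6 of the 12 were lower, against 10.8% of all probes. Hsp90b1 (Grp94), the Hsp90 of the ER, was the lowest of the 11 ER members above the negative controls, at -1.22 and -1.28, a mean of -1.25 ± 0.039 (SD, n = 2). The reference exceeded the ES cells 2.38-fold (adjusted p = 5.34e-06), with 7391 and 7641 units against 2941 and 3513. Hspa5 (BiP), the ER Hsp70, stood at -0.74 and -0.84, or 1.73-fold lower (adjusted p = 3.81e-05). Cytosolic Hspa8 and Hsp90aa1 were higher on both arrays, and their ER relatives Hspa5 and Hsp90b1 lower on both. Other cytosolic relatives did not share that height. Hsp90ab1 stood at a mean of 0.22, and of the 5 cytosolic Hsp70 genes 2 were higher, 2 lower and 1 did not pass (median 0.06). The promoters of Hsp90b1 and Hspa5 carry the ERSE matches printed above.

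Of the 5 ER J proteins, 4 were lower, 0 higher and 1 did not pass, against 31.4% of all probes lower and 31.6% higher. Dnajc3, an ER co-chaperone of Hspa5, was lower at -0.82 and -0.89. It was not above the negative controls in the ES cells, so the reference exceeded it at least 1.69-fold in this scaling only. The log2 ratio of Dnajc3 was -0.24 without background correction and -0.71 with median centring. Dnajc1 stood at -0.69 on both arrays (1.61-fold lower) and Dnajc10, a disulfide reductase in ER-associated degradation, at -0.53 and -0.56. Dnajc16 stood at -0.12 and -0.13 and was called lower, but not with negative control subtraction (adjusted p = 0.0758) or an offset of 0 (adjusted p = 0.0527). Dnajc14 did not pass (-0.09 and -0.07) but was called lower with median centring (-0.28). The first 3 of these genes lay beyond the range of the negative control spots.

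Disulfide isomerases and lectin chaperones lay closer to the reference. Pdia5 was lower at -0.54 and -0.52 and by its dimmer probe at -0.41, and Pdia4 was lower at -0.29 and -0.49. Pdia3, the isomerase that works with calnexin and calreticulin, was the only ER member counted as higher, at 0.12 and 0.10 (adjusted p = 0.0476), and with median centring it stood at -0.11 and did not pass (adjusted p = 0.0974). The calcium-binding lectin Calr was lower at -0.23 and -0.26 (1.19-fold, adjusted p = 0.00263). Its membrane-bound counterpart Canx did not pass at -0.11 and 0.00 (adjusted p = 0.344), but with median centring it was called lower (-0.20, adjusted p = 0.0136). Both promoters carry an ERSE match. The 5 members with the ERSE thus ran from -1.25 to -0.05.

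Markers of cell types in the pool are given beside the ER set. The summed signal of 7 fibroblast genes was 5141 and 6212 units in the ES cells and 78291 and 75789 in the reference, and all 7 were lower. Most of these sums is Vim, with 3904 and 4864 units in the ES cells and 59637 and 57306 in the reference. Of these markers, 5 were above the negative controls in the ES cells on both arrays, and Lox was below them on both. The 5 macrophage markers summed to 4910 and 6060 in the ES cells against 68803 and 64383 in the reference, of which Spp1 made up 60305 and 56066. The 3 hepatocyte markers on the arrays were below the negative controls in the ES cells, where 1 was called lower and 2 did not pass. Of 4 lymphocyte markers, 2 were higher and 2 lower (-2.18 to 0.19). How far the pool's cell types enter into the ER ratios was not tested.

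Mitochondrial members stayed near the reference. Hspa9 (mortalin), the mitochondrial Hsp70, stood at 0.17 and 0.08, a mean of 0.13 ± 0.067 (SD, n = 2), and was called higher at an adjusted p of 0.0437 that was lost in 5 other scalings (0.178 to 0.403). Hspe1, the Hsp10 lid of the mitochondrial chaperonin, stood at -0.14 and 0.04 and did not pass (adjusted p = 0.451). Its signals were 17283 and 23883 in the ES cells and 19756 and 20579 in the reference, so the arrays fell on both sides of 0. The J proteins Dnaja3 (0.04 and 0.11) and Dnajc11 (0.08 on both arrays) did not pass either. Dnajc30 was lower by 0.19 and 0.24 in log2 ratio, inside the range of the negative controls. Dnajc15, which sits at the import channel of the inner membrane, was lower at -0.68 and -0.47 (1.49-fold, adjusted p = 0.000528). Its mean of -0.57 lay beyond that range, which was taken from 2-array means in this scaling. Without background correction the log2 ratio of Dnajc15 was -0.42, and no such range was computed there.

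Both heat shock factors were called lower, Hsf4 not in every scaling. Hsf1, the main activator of the heat shock response, stood at -0.66 and -0.63, a mean of -0.64 ± 0.021 (SD, n = 2) or 1.56-fold below the reference (adjusted p = 5.09e-05). Hsf4, known from the lens, was lower by far less, at -0.16 and -0.18, within the range of the negative controls. Its call was lost with negative control subtraction (adjusted p = 0.0511) and with median centring (adjusted p = 0.108).

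**Figure D4:**
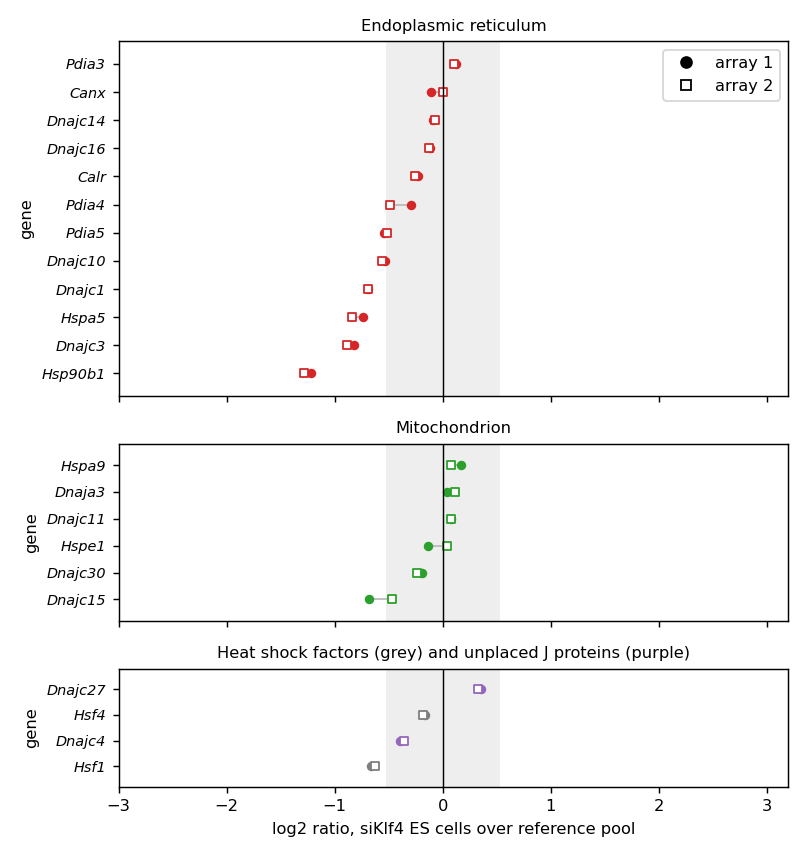
Log2 ratio of ES cells over reference (x axis) for the 12 ER members, the 6 mitochondrial members, the 2 heat shock factors and the 2 unplaced J proteins (y axis), with array 1 as filled circles and array 2 as open squares; the grey band is the range of the negative control spots (-0.52 to 0.52). Hsp90b1 lies at -1.25 and Dnajc3, whose ES signal was not above the negative controls, is drawn at its fitted -0.85; all ER genes except Pdia3 have means below 0, and the mitochondrial genes except Dnajc15 lie inside the band.

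Other folding genes, from lists outside the symbol rule, were counted in the same way. The list of cytosolic cofactors held 13 measured genes, namely 12 partners of Hsp70 and Hsp90 and the prefoldin gene Vbp1 given above. Of the 13, 10 were higher than the reference, 1 (the ubiquitin ligase Stub1, at -0.15) was lower and 2 did not pass, for a median of 0.47. Over all probes, 31.6% were called higher and 31.4% lower. Beyond the range of the negative controls, 6 of the 13 were higher and 0 lower. The immunophilins Ppid (1.27 and 1.51) and Fkbp5 (1.40 and 1.37) stood highest, at 2.63-fold and 2.61-fold. Ahsa1, which stimulates the Hsp90 ATPase, stood at 1.13 on both arrays, and the Hsp90 co-chaperone Ptges3 (p23) at 1.00 and 0.75. These are partners of Hsp90aa1 and Hsp90ab1, and all 4 lay beyond the range of the negative controls.

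The list of other ER folding and quality control genes was not chosen independently of these data. In it 17 of 18 were lower and 1 higher, with a median of -0.82. Beyond the range of the negative controls, 12 were lower and 1 higher. Derl3, a relative of the listed gene Derl1, was not on the list and was higher at 0.46 and 0.58. The lowest was Ero1a, the oxidase that recharges disulfide isomerases, at -3.33 and -3.31 (9.99-fold below the reference, adjusted p = 4.92e-07). The collagen chaperone Serpinh1 stood at -1.99 and -1.92, and Herpud1 and Derl1, of ER-associated degradation, at means of -1.63 and -1.10. Hyou1, the exchange factor of Hspa5, was lower at -0.96 and -0.89. Clgn, a testis relative of calnexin, was the exception and was higher at 0.62 and 0.64. In this list 2 genes, Creld2 (-0.78) and Syvn1 (-0.40), held the ERSE among the 13 with a promoter window. Over all 14 named genes on the array with an ERSE match, 9 were lower, 3 higher and 2 did not pass. Of the 9 lower, 4 are members given above. Over all probes, 31.4% were called lower and 31.6% higher. Of the 9 that are not members, 5 were lower and 3 higher (Hnrnpa3, Derl3 and Pan2). Among these, only the lower Creld2 and the higher Hnrnpa3 and Derl3 lay beyond the range of the negative controls.

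Among mitochondrial folding and protease genes outside the rule, 6 of 8 were higher, 1 was lower and 1 did not pass. Over all probes, 31.6% were called higher and 31.4% lower. Beyond the range of the negative controls, 3 of these genes were higher and 1 lower. Their median was 0.47, although the mitochondrial members stayed near 0. Grpel1, the exchange factor of Hspa9, stood at 0.72 and 0.76, the mitochondrial Hsp90 Trap1 at 0.66 and 0.69, and the protease subunit Clpp at 0.64 and 0.58. The protease Htra2 was lower at -0.67 and -0.62. Among 7 regulators of the unfolded protein response, 3 were higher, 2 lower and 2 did not pass, at a median of -0.04. Ddit3 (Chop) was lower at -1.29 and -1.37 (2.51-fold) and Xbp1, an activator of ER chaperone genes, at -1.12 and -0.99 (2.08-fold). Mbtps1 (0.40) and Atf4 (0.26) were higher within the spread of the negative controls.

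**Figure D5:**
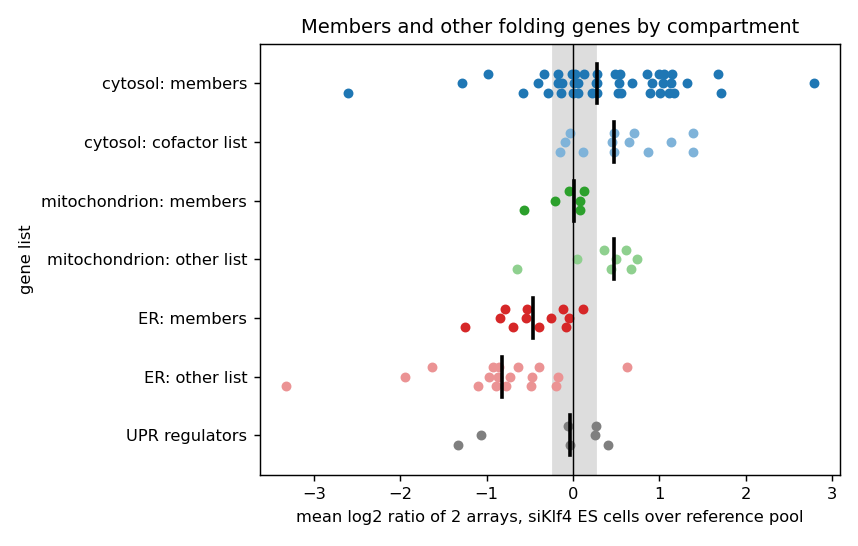
Mean log2 ratio of ES cells over reference (x axis, 2 arrays averaged) for the members of each compartment beside other folding genes of the same compartment and the regulators of the unfolded protein response (UPR), 1 point for each gene, black bars at the medians. The grey band spans the 25th to 75th percentile of all named genes (-0.23 to 0.26); the ER medians are -0.46 and -0.82, the cytosolic ones 0.28 and 0.47, and the mitochondrial ones 0.01 and 0.47.

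The arrays gave close values for most members. The median absolute difference between arrays was 0.058 over the 66 members and 0.059 over all probes, and 58 members differed by at most 0.2. In 6 members the arrays had opposite signs, all at means near 0. Of the 4 members with more than 1 probe (Hspa8, Hsp90aa1, Dnaja1 and Pdia5), each had probes on the same side of the reference.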

How the data were processed

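The files are the authors' Agilent Feature Extraction A.7.5.1 output, per the file headers. The deposited intensity values are mean spot and local background signals and processed signals. The processed values equal the mean less the local background, scaled by a dye factor that varies with intensity, and the headers list LOWESS parameters. The deposited log10 ratios set processed red against green. The authors' series table holds log10 values that equal the arrays' mean red signal minus that ratio, as tested on the files. Further steps are not given in the sources used here.

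Starting from the spots, normexp background correction (offset 50) and loess within arrays, with control spots at weight 0, were run in limma 3.58.1 (R 4.3.3), and ratios were turned to log2 of ES cells over reference. Probes marked as outliers (24) were left out, which kept 21028. Having 2 arrays limits the precision. The scanner's well-above-background flag was set for 100% of gene probes and 100% of negative controls for the ES cells, so those controls set the detection limit instead. For a probe below it in 1 channel, that channel was raised to the limit for a bound.

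Probe accessions were matched to RefSeq (GRCm38.p6) symbols, used for names only: 10422 probes had 1 symbol and 10630 none. The brightest probe stood for a gene. Ratios were tested against 0 with lmFit and eBayes, after tests on simulated data. The members and lists were chosen with earlier results of these data known. Named by rule were the main chaperones of each compartment, in each role the up to 3 highest and 3 lowest members, members given as bounds or with probes over 1 apart, and the up to 4 called genes with the largest ratio in each other list. The other J proteins, Vbp1, Hyou1, Clgn, Stub1, Creld2, Syvn1, Derl3, Hnrnpa3 and Pan2 were chosen after their values were seen. Alternatives were other background corrections and scalings, the series table, a filter on dim probes, the mean of probes, and each array alone.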

Additional observations from a re-analysis of the deposited data

How the results depend on the processing

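The direction of the cytosolic and ER medians was the same in every setting run. The cytosolic median was 0.28, and 0.38 with a normexp offset of 0, 0.42 with negative control subtraction and 0.52 among probes that exceeded the negative controls in each channel. The ER median was -0.46, and -0.24 without background correction, -0.56 with negative control subtraction, -0.62 with median centring and -0.39 among probes above the negative controls. The mitochondrial median had no stable sign, at 0.01, and -0.07 with median centring. With each array left out in turn the medians ran from 0.27 to 0.35 (cytosol), -0.05 to 0.06 (mitochondria) and -0.51 to -0.41 (ER); no test can be had from 1 array. The 1 mitochondrial gene called higher, Hspa9, became 0 with offset 0, negative control subtraction, processed signals, median centring and the series table. The 1 ER gene called higher, Pdia3, became 0 with offset 0, negative control subtraction and median centring. Among probes above the negative controls 6 cytosolic genes were lower, in place of 11, because fewer were tested. Negative control subtraction gave 8 members at least 2-fold lower and an offset of 0 gave 5, in place of 3, and no background correction or median centring gave 7 or 6 at least 2-fold higher, in place of 12; the cause was not tested. Median centring moved the median difference between arrays (2 minus 1) over members to 0.07. It also turned the sign of Pdia3 (-0.11), Dnaja4 (0.02), Dnajb7 (0.01), Hspb8 (-0.13), Hspb2 (0.03) and Hspb7 (0.04), all small ratios. No paired analysis was possible because the arrays form 1 group. Depth cannot be given for arrays, and 7 members at or below the negative control spots have ratios that are bounds or uncertain.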
